A study of Mus musculus with 2 samples.

Results

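The replication-dependent histone genes are the 67 genes, of 32285 in the deposited matrices, whose symbols name a clustered histone gene of type H1, H2A, H2B, H3 or H4 (Hist1, Hist2, Hist3 and Hist4). There were 6 H1, 18 H2A, 18 H2B, 12 H3 and 13 H4 genes, of which 54 lay on chromosome 13, 10 on chromosome 3, 2 on chromosome 11 and 1 on chromosome 6. They were measured by droplet-based single-cell RNA-seq of CT26 tumours. CT26 is a mouse colorectal carcinoma line, implanted subcutaneously in 5-week-old BALB/c mice of wild type genotype label. From a tumour volume of about 100 mm3 the mice received either vehicle or WQ-2101 at 20 mg/kg, injected into the peritoneum once a day, and tumours were taken on day 17 after inoculation. The series title concerns PHGDH, the first enzyme of serine synthesis. Each treatment is 1 library from an unsorted whole-tumour suspension, and both carry the same batch label. How many mice or tumours each library pools is not stated, so no difference between the libraries has a replicate check and no p-value is given. All intervals below are exact 95% Poisson intervals, which cover counting error only.

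Canonical histones package new DNA, and their genes are switched on together in S phase: H2A, H2B, H3 and H4 form the nucleosome core, and H1 binds the linker DNA between nucleosomes. Their mRNAs are the only known animal mRNAs that normally lack a poly(A) tail. They end instead after a stem-loop that the protein Slbp binds, and they are degraded when DNA synthesis stops. Some clustered histone genes can also give polyadenylated transcripts, and these can persist in cells that have left the cycle. The library chemistry primes on poly(A), so the counts hold only polyadenylated or internally primed histone transcripts. A comparison of levels between genes therefore also reflects how well each was captured, and the comparisons below are mainly of 1 gene across cells.

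The stem-loop, in its common form (the capitals of Hist1h2ae below) or its H4 form (those of Hist1h4d), was searched on the coding strand after the stop codon of the longest annotated model (GENCODE, GRCm38), allowing 1 mismatch. It was found in 42 of the 67 members, exact in 32 and with 1 mismatch in 10. It was absent from the models of 10 members, and the models of 15 end at or next to the stop codon. Within 100 bases after the stop codon of any model, 43 of 67 members held it, against 2 of 21778 other protein-coding genes (0.00918%), H2afx and H2bfm. The windows of the 8 members below are shown because the results turn on them. Capitals mark the stem-loop, and each is written 5′ to 3′ on the gene's strand.
Hist2h2ac, chr3:96220411-96220440, minus strand: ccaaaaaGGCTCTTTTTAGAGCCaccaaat
Hist1h4i, chr13:22040959-22040988, minus strand: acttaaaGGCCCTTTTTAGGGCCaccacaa
Hist1h4d, chr13:23581943-23581972, plus strand: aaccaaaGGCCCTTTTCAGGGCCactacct
Hist1h2ae, chr13:23570661-23570690, minus strand: aaacaaaGGCTCTTTTCAGAGCCattcact
Hist1h3c, chr13:23745040-23745069, minus strand: aaaaaaaGGCTCTTTTAAGAGCCacctaag
Hist1h1e, chr13:23621775-23621804, minus strand: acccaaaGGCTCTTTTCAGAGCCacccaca
Hist1h1c, chr13:23739505-23739534, plus strand: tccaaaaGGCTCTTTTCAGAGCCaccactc
Hist1h2ac, chr13:23683470-23683499, minus strand: acccaaaGGCTCTTTTCAGAGCCcccactt

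Hist1h4i and Hist2h4 share 1 form of the stem-loop with a single mismatch, and Hist2h2ac alone carries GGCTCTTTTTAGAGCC. The plain H4 form was found in 7 members, all of type H4. Hist1h2bc (ENSMUSG00000018102), on chr13:23684199-23692908 of the plus strand, has no stem-loop in the annotated model searched. That model is spliced, with 2 exons and 742 bases after the stop codon, and genome sequence outside the models was not searched. Hist1h1c (ENSMUSG00000036181), on chr13:23738808-23740367 of the plus strand, carries an exact stem-loop 24 bases after its stop codon, but its model runs a further 840 bases past it to a polyadenylation signal (AATAAA or ATTAAA in the last 50 bases). The model of Hist1h2ac runs 2010 bases past its stem-loop. The start sites of Hist1h2ac and Hist1h2bc lie 251 bases apart on opposite strands. The model of Hist1h1b (ENSMUSG00000058773), chr13:21779883-21780625 on the minus strand, has no base after the stop codon.

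Promoters were read for 62 members as the 150 bases before the RefSeq start (GRCm38.p6). CCAAT, the box bound by NF-Y, was present in 51 of 62 against 25.3% of 27025 promoters of that length. It was in 6 of 6 H1, 18 of 18 H2A, 16 of 16 H2B and 8 of 10 H3 promoters but 3 of 12 H4 promoters. TATAAA was present in 24 (8.08% of all promoters). The octamer ATTTGCAT, the site known from H2B promoters, was present in 10 (1.02%), 5 of type H2A and 5 of type H2B. AAACACA, known from H1 promoters, was present in 8 (3.5%), of which 5 were among the 6 H1 genes. Each motif was searched on its own on both strands, so matches may overlap, and a match describes the letters only. Windows of divergent neighbours can overlap, as for Hist1h2ae and Hist1h2bg, so the same letters can count for 2 members. The 5 promoters below belong to members with contrasting patterns in the cells, with matches to the 4 motifs in capitals.
Hist1h1b, chr13:21780626-21780775, minus strand: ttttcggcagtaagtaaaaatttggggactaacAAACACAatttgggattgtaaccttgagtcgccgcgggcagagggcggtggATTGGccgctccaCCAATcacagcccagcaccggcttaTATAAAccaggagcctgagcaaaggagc
Hist1h4d, chr13:23581418-23581567, plus strand: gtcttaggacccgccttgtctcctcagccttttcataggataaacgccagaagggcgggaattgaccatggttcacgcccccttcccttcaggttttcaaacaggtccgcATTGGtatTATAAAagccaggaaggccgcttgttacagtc
Hist1h1c, chr13:23738657-23738806, plus strand: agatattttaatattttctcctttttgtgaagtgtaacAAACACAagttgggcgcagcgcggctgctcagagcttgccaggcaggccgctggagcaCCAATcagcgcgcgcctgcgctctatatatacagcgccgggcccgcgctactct
Hist1h2ac, chr13:23683960-23684109, minus strand: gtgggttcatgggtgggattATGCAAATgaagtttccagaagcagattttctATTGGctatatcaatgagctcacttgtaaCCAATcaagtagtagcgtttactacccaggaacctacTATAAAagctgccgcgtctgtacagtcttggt
Hist1h4i, chr13:22041363-22041512, minus strand: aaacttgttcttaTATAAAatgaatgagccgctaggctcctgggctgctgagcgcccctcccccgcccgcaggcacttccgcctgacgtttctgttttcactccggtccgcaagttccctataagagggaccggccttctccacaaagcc
Hist1h1b and Hist1h1c share the CCAAT and AAACACA letters, although the 2 genes ran in opposite directions between cycling and non-cycling tumour cells in the values that follow.

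Unique molecular identifiers (UMIs, counted transcripts) numbered 184754398 over 14374 barcodes with vehicle and 185587327 over 18142 barcodes with WQ-2101. After removal of shallow, mitochondria-rich and doublet-called barcodes, 13668 and 17293 cells remained, with median depths of 10742.5 and 8048 UMIs, so the WQ-2101 cells were shallower. The libraries shared 61 kept barcodes (0.446% and 0.353% of cells). Classes were set by the counts of fixed marker genes, so they are ranges of marker level. The tumour class held 6303 and 7856 cells, the macrophage or monocyte class 4357 and 4064, and the T cell class 546 and 648. Between 0.463% and 1.65% of a class lay within 10% above its threshold. The tumour class rests on Hmga2 (1177 and 1241 CPM, the UMIs of a gene scaled to a total of 1000000 for the class) and Phgdh (303 and 276.5 CPM): the epithelial keratins Krt7, Krt8, Krt18 and Krt19 were near absent there, with at most 0.196 CPM. No marker placed 1838 (13.45%) and 4159 (24.05%) of the cells.

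Of the 67 members, 66 had at least 1 UMI. The exception was Hist1h2ba, the testis H2B gene. Another 4 had under 10 UMIs: Hist1h1t (9), the testis H1 gene, Hist1h2aa (4), the testis H2A gene, Hist2h2aa2 (4) and Hist1h2bq (1). The 3′ ends of Hist2h2aa2 and Hist1h2bq are fully shared with other genes in 31-base words, so reads from them cannot be assigned with certainty. Over all kept cells the members held 403971 UMIs, 0.1165% of the total. Hist1h2bc (76475 UMIs), Hist1h1c (75888), Hist1h1b (59135) and Hist1h1e (35596) made up 61.17% of them. In tumour cells 20 members reached a mean of 5 CPM over the libraries: 4 H1, 6 H2A, 4 H2B, 4 H3 and 2 H4 genes. The other 47 members had up to 2951 UMIs each, with a median of 485. Among the 20 expressed members, 6 shared over 50% of the 31-base words of their 3′ ends with other genes. These were Hist1h1e, Hist1h2ab, Hist1h2an, Hist1h2ap, Hist1h3e and Hist1h3i, so their reads are not certainly their own.

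Cells were called cycling at 2 or more UMIs of Mki67 and Top2a together, genes of proliferating cells, and non-cycling at 0. In the tumour class 61.95% of Vehicle cells (60.74 to 63.16) and 64.17% of WQ-2101 cells (63.1 to 65.23) were cycling by this rule. The call depends on depth: cycling tumour cells had medians of 20397 and 16454 UMIs, and non-cycling ones 12237.5 and 10293. With every cell thinned to 3000 UMIs the cycling shares were 36.88% and 39.19%, leaving out 37 and 173 shallower cells. Without thinning, 24.54% and 43.78% of the cells in no class were cycling, so the gates left out cycling cells unequally between the libraries. Macrophages and monocytes were cycling in 18.61% and 21.04% of cells, and T cells in 13.74% and 12.81%. Thinned, these shares were 10.04% and 14.76% of macrophages and monocytes (345 and 724 cells left out) and 19.37% and 26.73% of T cells (293 and 431 left out), so the order of the libraries turned for T cells.

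Summed over the 67 members, histone transcripts were 1.37 times as abundant in cycling as in non-cycling Vehicle tumour cells (1519 against 1111 CPM, interval 1.35 to 1.39). In WQ-2101 tumour cells the ratio was 1.60 (1351.5 against 845 CPM, 1.57 to 1.63). The small ratios hid opposite patterns of single genes. Most members were far more abundant in cycling cells, while Hist1h2bc and Hist1h1c, the most abundant members, were more abundant in non-cycling ones. Without these 2 genes, a split chosen after their values were seen, the ratio was 4.53 in the Vehicle library (1084 against 239 CPM, 4.397 to 4.66). It was 4.23 in the WQ-2101 library (1029 against 243 CPM, 4.10 to 4.36).

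At a threshold of 1.5-fold in CPM plus 5 (a constant added to both levels to damp low counts), 14 of the 20 expressed members were higher in cycling Vehicle tumour cells, where 5.3% of the 9995 genes tested passed. In WQ-2101 tumour cells 15 of 20 passed, against 5.32% of all genes. Lower in cycling cells in both libraries were 3 members, Hist1h1c, Hist1h2ac and Hist1h2bc, where 1.11% and 0.85% of all genes passed. With cells thinned to 3000 UMIs only Hist1h2bc of these 3 stayed past the threshold in the WQ-2101 library, where Hist1h1c stood at -0.576 and Hist1h2ac at -0.452 on the log2 scale. The members' median log2 ratio was 1.505 and 1.36, and that of all genes -0.03 and 0.00. Expressed members pass the filter partly through their level in cycling cells, so this median does not stand for all 67.

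**Figure D1:**
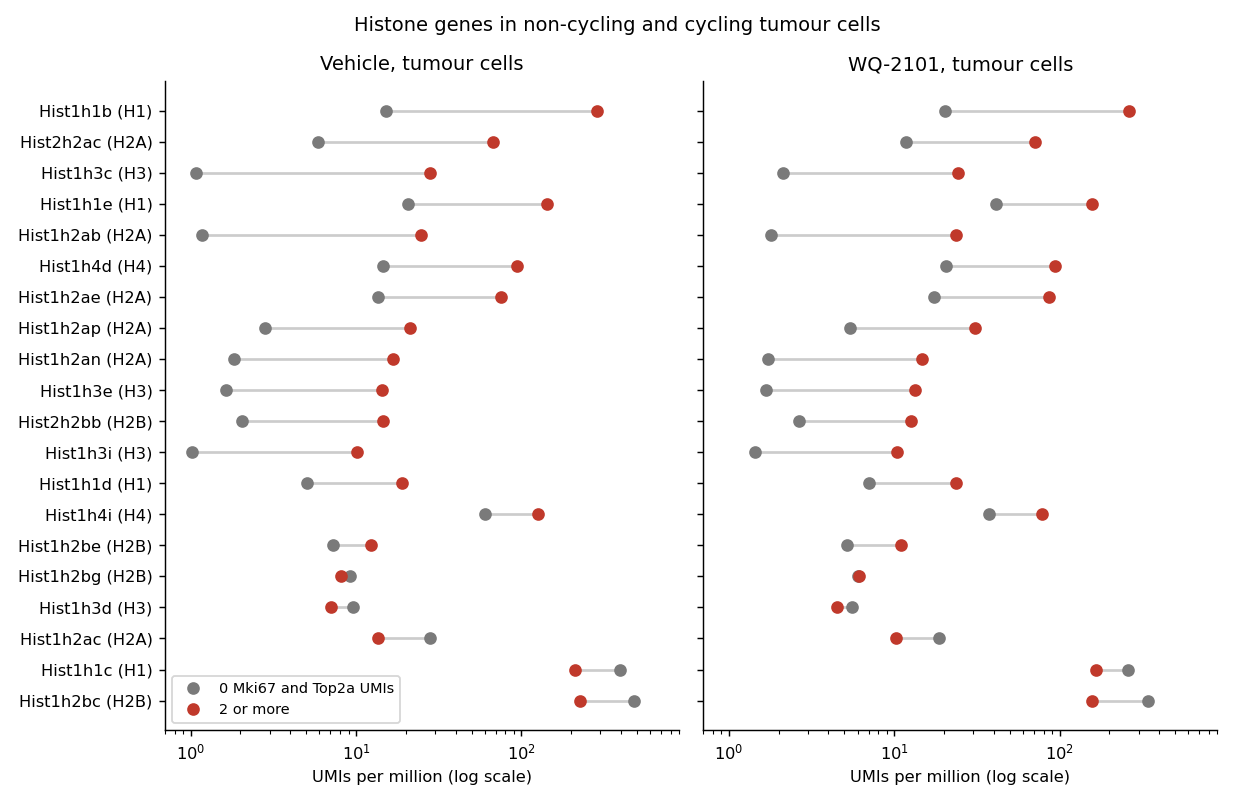
CPM (log axis) of the 20 expressed members in tumour cells with 0 (grey) and with 2 or more (red) Mki67 and Top2a UMIs, for each library. Hist1h1b at the top went from 15.2 to 287.6 CPM in the Vehicle library, while Hist1h2bc at the bottom went from 476 to 225.9 CPM.

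Among the H1 genes, Hist1h1b (H1.5) was the member that separated the states most on the CPM plus 5 scale. It had 287.6 CPM in cycling and 15.2 in non-cycling Vehicle tumour cells, a ratio of 18.9 (16.8 to 21.2). In WQ-2101 tumour cells it had 262 and 20.4 CPM, a ratio of 12.8 (11.6 to 14.3). Hist1h1b was thus high in cycling cells of both libraries and the intervals of the 2 ratios did not overlap. Hist1h1e (H1.4) had 143 against 20.5 CPM in the Vehicle library, a ratio of 6.99 (6.32 to 7.73), and 158 against 41.0 CPM in the WQ-2101 library, a ratio of 3.85 (3.57 to 4.15). Its 3′ end is fully shared with other genes, and its model overlaps those of Hist1h2be and Gm11398 on the same strand, so its reads are not certainly its own. Hist1h1d (H1.3) had 19.1 against 5.05 CPM and 23.8 against 7.06 CPM. Hist1h1c (H1.2) ran the other way. It had 209 CPM in cycling and 396 in non-cycling Vehicle cells, a ratio of 0.529 (0.515 to 0.543). In WQ-2101 cells the levels were 165 and 260 CPM, a ratio of 0.637 (0.616 to 0.658). Without Hist1h1c, the H1 genes together were 11.0 (10.3 to 11.9) and 6.46 (6.10 to 6.85) times as abundant in cycling cells.

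Hist1h2bc dominated the H2B genes and made type H2B the only type lower in cycling tumour cells, at 0.584 (0.571 to 0.598) and 0.602 (0.585 to 0.619) times the non-cycling level. Hist1h2bc itself had 226 CPM in cycling and 476 in non-cycling Vehicle cells, a ratio of 0.475 (0.463 to 0.486). It had 157 and 342 CPM in WQ-2101 cells, a ratio of 0.460 (0.446 to 0.474). The other H2B genes together were 2.38 (2.18 to 2.59) and 2.54 (2.30 to 2.81) times as abundant in cycling cells. Hist2h2bb was among them, with 14.5 against 2.04 CPM and 12.6 against 2.66 CPM. Hist1h2be had 12.3 against 7.29 CPM and 11.0 against 5.15 CPM, past the threshold in the WQ-2101 library alone. The remaining expressed H2B gene, Hist1h2bg, stood at 8.12 against 9.22 CPM and 6.16 against 6.07 CPM, ratios whose intervals span 1.

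The H2A genes were 3.99 (3.77 to 4.23) and 4.06 (3.82 to 4.32) times as abundant in cycling tumour cells. Hist2h2ac differed most of them on the CPM plus 5 scale, with 5.91 CPM in non-cycling and 67.4 in cycling Vehicle cells, a ratio of 11.4 (9.48 to 13.8). In the WQ-2101 library it had 11.9 and 70.9 CPM, a ratio of 5.98 (5.20 to 6.91). Hist1h2ab, near 1 to 2 CPM in non-cycling cells of both libraries, had 24.6 and 23.6 CPM in cycling ones. In 31-base words, 72.2% of its 3′ end is shared with other genes. Hist1h2ae, the most abundant H2A gene, had 75.4 against 13.5 CPM and 86.5 against 17.4 CPM. Hist1h2ap had 21.2 against 2.80 CPM and 30.8 against 5.38 CPM, with a 3′ end fully shared with other genes. Hist1h2ac was the H2A gene that ran the other way, with 13.5 CPM in cycling and 27.9 in non-cycling Vehicle cells (ratio 0.483, 0.435 to 0.535). Its WQ-2101 levels were 10.3 and 18.7 CPM (ratio 0.550, 0.484 to 0.626). Hist1h2ac is the divergent neighbour of Hist1h2bc described above.

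The nucleosome's H3 and H4 genes were also more abundant in cycling tumour cells. H3 genes had ratios of 3.64 (3.29 to 4.03) and 4.04 (3.59 to 4.56), and H4 genes 2.78 (2.65 to 2.93) and 2.80 (2.64 to 2.98). Among the 20 expressed members Hist1h3c had the highest plain ratio of the Vehicle library, 26.1 (17.0 to 42.2), with 1.07 CPM in non-cycling and 27.9 in cycling cells. In WQ-2101 cells it had 2.14 and 24.4 CPM, a ratio of 11.4 (8.24 to 16.2). Hist1h3e (14.3 against 1.63 CPM, then 13.3 against 1.68 CPM) and Hist1h3i (10.1 against 1.02 CPM, then 10.4 against 1.45 CPM) followed the same direction. Hist1h3d did not: it stood at 7.03 against 9.63 CPM and 4.53 against 5.55 CPM. Of the H4 genes, Hist1h4d had 94.0 against 14.5 CPM (ratio 6.47, 5.75 to 7.31) and 93.5 against 20.6 CPM (4.54, 4.09 to 5.07). Hist1h4i differed less between the states, by 2.10 (1.98 to 2.23) and 2.09 (1.93 to 2.27), since its non-cycling levels of 60.2 and 37.2 CPM were already high.

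The members thus fell into a large group that was higher in cycling tumour cells and a small group of 3 that was lower, with the rest past the threshold in neither direction. Model length differed between them as a description: 10 expressed members have models running 300 bases or more past the stop codon, with a median log2 ratio (mean of the libraries) of 0.785, 5 of them higher and 3 lower in cycling cells. The 10 with shorter models had a median of 1.92, 9 of them higher and 0 lower. Of these 10, 4 have no base annotated past the stop codon (Hist2h2bb, Hist1h1b, Hist1h3i and Hist1h2an), so a short model need not mean a short transcript. Hist1h2bc, Hist1h1c and Hist1h2ac all belong to the longer models. Hist1h4d and Hist1h1e, with 822 and 1209 bases after the stop codon, also do. The polyadenylation signal was in 4 expressed models, Hist1h1c, Hist1h4i, Hist1h2ae and Hist1h2be, with 2 higher and 1 lower in cycling cells. Of the 16 without it, Hist1h2bc and Hist1h2ac among them, 12 were higher and 2 lower. The share of all genes past the threshold by this mean was not computed, so nothing is read from these counts.

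Markers of other cell types were summed by state in tumour cells. The macrophage markers summed to 175.5 CPM in cycling and 191 in non-cycling Vehicle tumour cells, and to 195 and 179 CPM in WQ-2101 cells, against 15364 and 12981 CPM in the macrophage class. The fibroblast markers summed to 557 and 682 CPM and to 454 and 544 CPM, against 19060 and 15980 CPM in the fibroblast class, and so were lower in cycling cells of both libraries. The T cell markers summed to 6.97 and 5.86 CPM and to 12.2 and 8.15 CPM, higher in cycling cells, against 4735 and 4635 CPM in the T cell class. The gates kept cells with more of these markers out of the tumour class, so the sums are capped and do not measure stray RNA. The part of other cell types in the members' values was not tested.

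Graded by the number of Mki67 and Top2a UMIs, the 2 groups crossed within the tumour class. Hist1h1b stood at 15.2, 15.02, 30.0, 82.8, 272 and 431 CPM in Vehicle cells with 0, 1, 2 to 4, 5 to 9, 10 to 19 and 20 or more such UMIs. Over the same cells Hist1h2bc stood at 476, 404, 337, 279, 203 and 184 CPM. Hist1h1c went from 396 CPM at 0 to 190 CPM in each of the 2 highest groups. The WQ-2101 library ran in the same directions: Hist1h1b went from 20.4 to 408 CPM and Hist1h2bc from 342 to 105 CPM. All members summed were lowest at 2 to 4 UMIs in the Vehicle library (906 CPM) and at 1 UMI in the WQ-2101 library (807 CPM), and highest at 20 or more (1896 and 1730 CPM). Depth rose over these groups too, from a median of 12237.5 to 25122 UMIs in Vehicle cells, and its part was not tested.

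**Figure D2:**
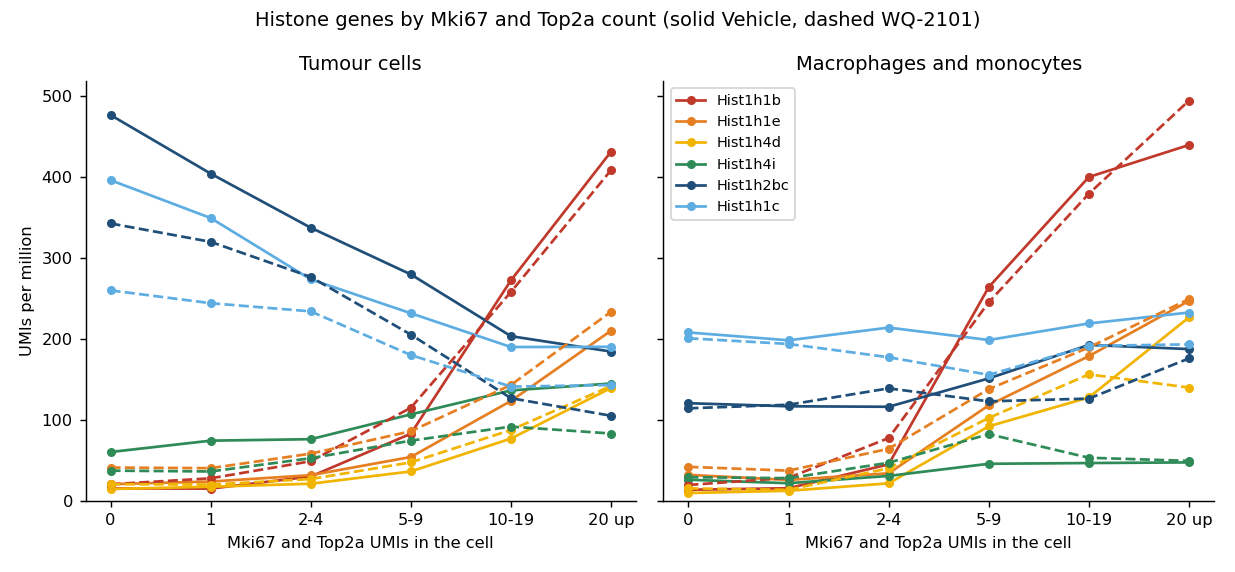
CPM of 6 members (linear axis) against the number of Mki67 and Top2a UMIs per cell, for tumour cells and for macrophages and monocytes, with Vehicle as solid and WQ-2101 as dashed lines. In tumour cells Hist1h2bc (dark blue) goes from 476 to 184 CPM and Hist1h1b (red) from 15.2 to 431 CPM in the Vehicle library, while in macrophages and monocytes Hist1h2bc lies between 114 and 192 CPM in both libraries.

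A second grading used genes of early S phase (such as Cdc6, Mcm5 and Clspn) and of mitosis (such as Ccnb1, Plk1 and Cenpf), each a list. Cells in the upper quartile for 1 list and not above the median for the other were compared; these are ranges of a score, and between 39 and 123 tumour cells per range and library lay within 10% of the threshold. Histone UMIs were 931 and 870 CPM on the early S side (955 and 833 cells) and 1538 and 1348.5 CPM on the mitosis side (853 and 1053 cells). Tumour cells low in both lists had 1183 and 870 CPM, above the early S side with vehicle and level with it with WQ-2101. Hist1h4d had 47.0 and 48.1 CPM on the early S side and 97.8 and 94.6 CPM on the mitosis side, and Hist1h3c had 14.7 and 13.5 CPM against 27.1 and 23.3 CPM. Hist1h1b was close on both sides, with 173 and 186 CPM against 195 and 166.5 CPM. Hist1h2bc had its lowest level on the early S side (162 and 102.5 CPM), a higher one on the mitosis side (315 and 257 CPM) and its highest in cells low in both lists (499 and 346 CPM). Hist1h1c was ordered alike, with 139 and 95.7, then 273 and 230.0, then 424 and 269 CPM. Tumour cells in the upper quartile for both lists had the most histone UMIs, 1859 and 1692 CPM, from 138 and 229 cells. Of these cells, 74 and 98 lay within 10% of an upper threshold.

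The supply genes, a list of 24 chosen for histone mRNA processing, chaperoning and their control, moved less with the state. Of 23 expressed in tumour cells, 9 and 10 were 1.5-fold higher in cycling cells (5.3% and 5.32% of all genes) and 0 were lower (1.11% and 0.85%), with medians of 0.465 and 0.553 on the log2 scale. Asf1b, the histone chaperone of proliferating cells, differed most (60.2 against 6.42 CPM in the Vehicle library, log2 2.51). Slbp, which binds the stem-loop, had 160 against 99.3 CPM (0.659) and 126 against 73.3 CPM (0.740). Lsm10, a subunit of the U7 particle that cuts histone mRNA, was at the other end (36.7 against 44.9 CPM, -0.261). Of 11 histone genes listed as replication-independent, whose mRNAs are mostly polyadenylated, 5 were higher in cycling cells of both libraries: Cenpa, H2afx, H2afz, H2afv and H1fx. H2afx is the exception in the list, since it carries the stem-loop described above and is known to give both kinds of mRNA. Cenpa, the centromere H3 variant, had the largest value (165 against 14.9 CPM, 3.09), and H3f3a, an H3.3 gene, stood at 0.130. All 12 early S and all 10 mitosis genes passed in both libraries, led by Clspn (2.43) and Cenpf (3.44) in the Vehicle library. Ccne1 and Ccne2 belong to both the supply and the early S list.

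Macrophages and monocytes showed the cycling pattern without the opposite group. Their histone UMIs were 1344 CPM in cycling and 506 in non-cycling Vehicle cells, a ratio of 2.65 (2.58 to 2.73), and 1327.5 and 529 CPM in WQ-2101 cells, a ratio of 2.51 (2.43 to 2.59). Of 19 expressed members, 15 and 16 were 1.5-fold higher in cycling cells (6.95% and 7.98% of 9400 genes passed) and 0 were lower (0.957% and 0.809%). Hist1h1b again separated the states, at 241 against 13.6 CPM (ratio 17.8, 15.6 to 20.3) and 245 against 19.5 CPM (12.6, 11.0 to 14.4). Hist1h3c had 35.7 against 1.27 CPM and 28.9 against 1.41 CPM. Hist1h2bc stood slightly higher in cycling cells here, at 154 against 120 CPM (1.28, 1.20 to 1.37) and 135 against 114 CPM (1.19, 1.09 to 1.29). Hist1h1c had 215 against 208 CPM (1.03, 0.980 to 1.09) and 178 against 200.5 CPM (0.887, 0.829 to 0.949). In non-cycling cells the level of Hist1h2bc was thus 476 CPM in tumour cells and 120 in macrophages of the Vehicle library. Hmga2, the tumour marker, was counted in the macrophage class at 3.21% and 4.72% of its tumour level and in the T cell class at 3.15% and 3.97%. The gates kept cells with more Hmga2 and keratin RNA out of both classes, so these levels are capped and do not measure stray RNA. The part of RNA from other cells in the members' values was not tested.

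T cells had the highest ratios and the fewest cells, 75 and 83 cycling against 388 and 477 non-cycling. Histone UMIs were 2371 against 569 CPM (ratio 4.16, 3.78 to 4.59) in the Vehicle library and 2110 against 601 CPM (3.51, 3.18 to 3.87) in the WQ-2101 library. Of 24 expressed members 20 and 19 were 1.5-fold higher in cycling cells, where 15% and 18.1% of 9723 genes passed, and 0 were lower (12.8% and 13.8%). Hist1h1b had 506 against 23.5 CPM and 515 against 37.4 CPM. Hist1h2bc did not keep a direction, with 147 against 98.2 CPM (1.49, 1.096 to 2.02) and 78.0 against 102 CPM (0.765, 0.509 to 1.12).

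**Figure D3:**
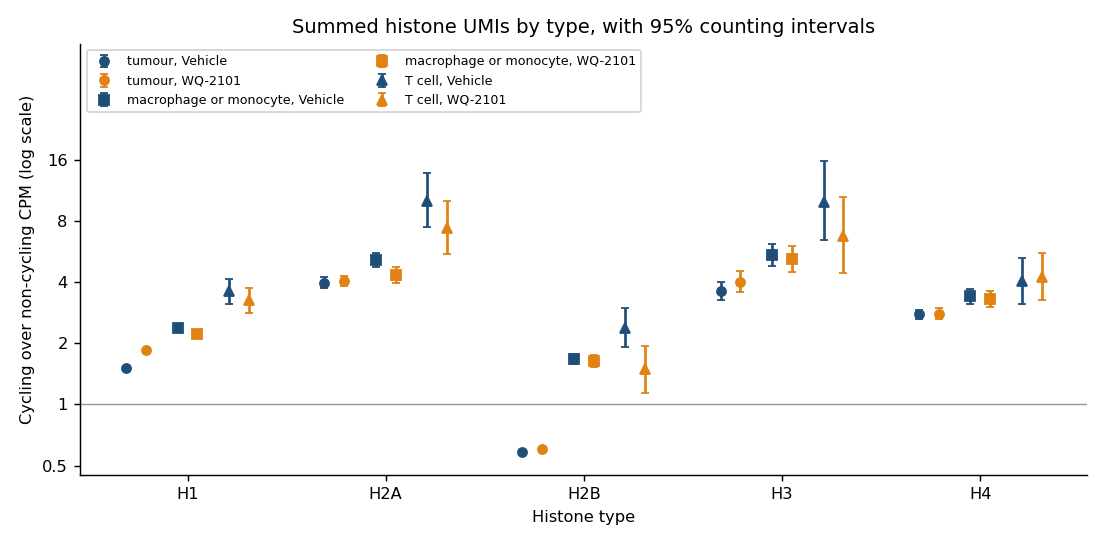
Ratio of cycling to non-cycling CPM (log axis) for each histone type in tumour cells (circles), macrophages and monocytes (squares) and T cells (triangles), Vehicle in blue and WQ-2101 in orange, with 95% counting intervals. Type H2B in tumour cells, at 0.584 and 0.602, is the only type below 1.

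By type, the ratios of H1, H2A and H3 were lowest in tumour cells and highest in T cells in both libraries. For H1 this order rests on Hist1h1c. Without it the ratios in tumour cells, macrophages and monocytes, and T cells were 11.0, 7.69 and 7.67 in the Vehicle library, highest in tumour cells. In the WQ-2101 library these H1 ratios were 6.46, 5.96 and 5.84, with intervals that all overlapped. In the WQ-2101 library the intervals of tumour cells and of macrophages and monocytes overlapped for H2A and H3, and those of macrophages and monocytes and of T cells for H3. H2A ratios were 5.16 (4.77 to 5.60) and 4.35 (3.98 to 4.76) in macrophages and monocytes and 10.1 (7.52 to 13.9) and 7.40 (5.51 to 10.1) in T cells. H3 ratios were 5.47 and 5.22 in macrophages and monocytes, and 9.95 and 6.80 in T cells. For H4 the T cell ratios of 4.05 (3.14 to 5.25) and 4.27 (3.26 to 5.60) had intervals that overlapped those of macrophages and monocytes in both libraries. H2B ratios were above 1 in macrophages and monocytes (1.68 and 1.63) and in T cells (2.39 and 1.49).

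Among cycling cells alone, a few members differed between classes in both libraries. Against cycling tumour cells, 3 of 30 expressed members were 1.5-fold higher in cycling macrophages and monocytes (16.8% of all genes): Hist1h1a, Hist1h3a and Hist3h2a. None was lower (29.3% of all genes). A member counted here if its mean over the cycling cells of both classes and both libraries reached 5 CPM, so members low in tumour cells, such as Hist1h1a and Hist1h3a, passed only through the class where they are high and the counts are no measure of direction. Hist1h1a (H1.1) had 18.3 CPM (15.7 to 21.2) and 17.4 CPM (14.5 to 20.7) in cycling macrophages and monocytes and 26.1 (13.9 to 44.6) and 17.8 CPM (7.69 to 35.1) in cycling T cells. All 6303 and 7856 tumour cells together held 22 and 18 UMIs of it, 0.189 and 0.153 CPM. Hist3h2ba showed a like contrast: 4 and 10 UMIs in all tumour cells, 5.58 and 4.65 CPM in cycling macrophages and monocytes, and 32.1 and 26.7 CPM in cycling T cells. Both genes thus had few UMIs in tumour cells, most of which were cycling. Hist3h2a was higher in macrophages and monocytes irrespective of state, with 19.1 and 15.3 CPM in cycling and 21.4 and 22.2 CPM in non-cycling cells, against 5.42 and 4.74 CPM in cycling tumour cells. Its model overlaps that of Trim17 on the same strand, so its reads are not certainly its own. Cycling T cells had 19 of 36 members 1.5-fold above cycling tumour cells (16.4% of all genes) and 1 below, Hist1h2bc (24%). They had 16 of 36 above cycling macrophages and monocytes (16.6%) and 0 below (15.5%). Hist3h2ba, Hist1h1a, Hist1h3a and others of the 19 likewise passed only through the T cells, and nothing is read from these counts.

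**Figure D4:**
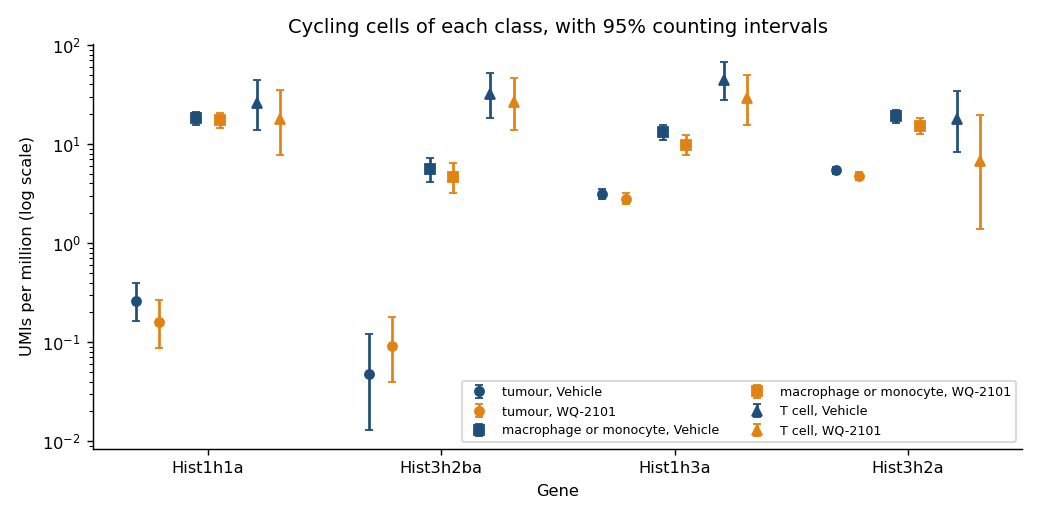
CPM (log axis) of 4 members in cycling tumour cells (circles), macrophages and monocytes (squares) and T cells (triangles), Vehicle in blue and WQ-2101 in orange, with 95% counting intervals. Hist1h1a and Hist3h2ba lie under 0.3 CPM in tumour cells and above 4 CPM in the other classes.

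Between the libraries, histone UMIs in tumour cells were lower with WQ-2101, at 1218 against 1399 CPM, a ratio of 0.871 (0.864 to 0.877). The ratio was 0.890 (0.883 to 0.897) in cycling and 0.761 (0.745 to 0.777) in non-cycling cells. Most of this lay in Hist1h2bc and Hist1h1c: without them the ratio was 0.965 (0.956 to 0.974) in all tumour cells and 1.02 (0.975 to 1.06) in non-cycling ones. Hist1h2bc had 286 CPM with vehicle and 202 with WQ-2101, a ratio of 0.707 (0.695 to 0.719). Hist1h1c had 255 and 188 CPM, a ratio of 0.736 (0.724 to 0.749). These 2 genes were lower with WQ-2101 in both states, and neither passed the 1.5-fold threshold in all tumour cells.

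Of the 20 expressed members, 1 passed that threshold, Hist1h4i, lower with WQ-2101, where 0.41% of all genes passed. None was 1.5-fold higher (0.86%). The members' median was -0.10 and that of all genes -0.01 on the log2 scale. Hist1h4i had 110 CPM with vehicle and 67.3 with WQ-2101, a ratio of 0.611 (0.594 to 0.629). It was lower in cycling cells (127 and 77.8 CPM) and in non-cycling cells (60.2 and 37.2 CPM) alike. The other H4 genes together had a ratio of 1.02 (0.991 to 1.05), Hist1h4d among them at 1.03 (0.996 to 1.06). In macrophages and monocytes Hist1h4i ran the other way, from 29.1 to 37.0 CPM, a ratio of 1.27 (1.16 to 1.39). In T cells it was lower with WQ-2101, as in tumour cells, at 56.5 and 39.8 CPM, a ratio of 0.705 (0.519 to 0.953).

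The counting interval lay below 1 for 11 of the 20 members in tumour cells, above 1 for 5 and across 1 for 4. Intervals of summed counts are narrow and the share of all genes on either side was not computed, so nothing is read from these counts. Above 1 were Hist1h2ap (1.51, 1.42 to 1.60), Hist1h1d (1.25), Hist1h2ae (1.17), Hist1h1e (1.16) and Hist2h2ac (1.097). Below 1, Hist1h3d had nearly the ratio of Hist1h4i, 0.632 (0.567 to 0.705), but at 7.38 and 4.67 CPM its level kept it under the threshold. Hist1h2ap had 16.3 CPM with vehicle and 24.5 with WQ-2101, under the threshold once 5 CPM were added. By type, H2A was at 1.07 (1.06 to 1.09), H1 at 0.901 (0.891 to 0.910), H3 at 0.891 (0.862 to 0.922), H4 at 0.795 (0.780 to 0.810) and H2B at 0.742 (0.731 to 0.754). Without Hist1h1c, H1 was at 1.02 (1.01 to 1.04), and without Hist1h2bc, H2B was at 0.915 (0.884 to 0.947). With 1 library a group, these intervals do not include variation between tumours.

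In cycling tumour cells Hist1h4i was again the single member past the threshold, with 1 lower (0.41% of all genes) and 0 higher (0.95%). Non-cycling tumour cells had 2 members lower, Hist1h4i and Hist1h1c (0.5% of all genes), and 2 higher, Hist2h2ac and Hist1h1e (0.89%). The H1 genes other than Hist1h1c stood at 68.7 CPM with WQ-2101 and 40.8 with vehicle in these cells, a ratio of 1.68 (1.54 to 1.84). The WQ-2101 cells with 0 Mki67 and Top2a UMIs were shallower, and they held 115 CPM of the 10 mitosis genes against 86.7 CPM in Vehicle cells. The 12 early S genes ran the other way, at 262 CPM with WQ-2101 and 301 with vehicle. The part of depth in this difference was not tested.

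In macrophages and monocytes no expressed member differed by 1.5-fold between the libraries, with 0 of 19 higher (2.2% of all genes) and 0 lower (0.543%). Their histone UMIs were 763 CPM with WQ-2101 and 735 with vehicle, a ratio of 1.04 (1.02 to 1.06). Of the 20 members expressed in tumour cells, 9 had an interval above 1 here, and Hist1h2bc (0.939) and Hist1h1c (0.926) had one below 1. The share of all genes with such intervals was not computed here either. Hist1h2ap was the highest, at 7.06 CPM with vehicle and 10.8 with WQ-2101, a ratio of 1.52 (1.28 to 1.82). In cycling cells of that class 0 were higher (3.21%) and 0 lower (1.05%), and in non-cycling cells 0 were higher (1.73%) and 0 lower (0.511%). T cells had 1018 and 970 CPM, a ratio of 0.953 (0.894 to 1.02). Of 24 members 1 was lower with WQ-2101 there, Hist1h2an (3.19% of all genes), and 0 were higher (3.24%). Within cycling T cells 0 were higher (13.2%) and 4 lower, Hist1h2ag, Hist1h2an, Hist1h2bc and Hist3h2a (12.4%). In non-cycling T cells 2 were higher, Hist1h2ae and Hist1h4c (5.43%), and 0 lower (6.13%). Hist1h2ag, Hist1h2an, Hist1h4c and the 4 members compared between cycling classes are outside the naming rule and were named after their values were seen.

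**Figure D5:**
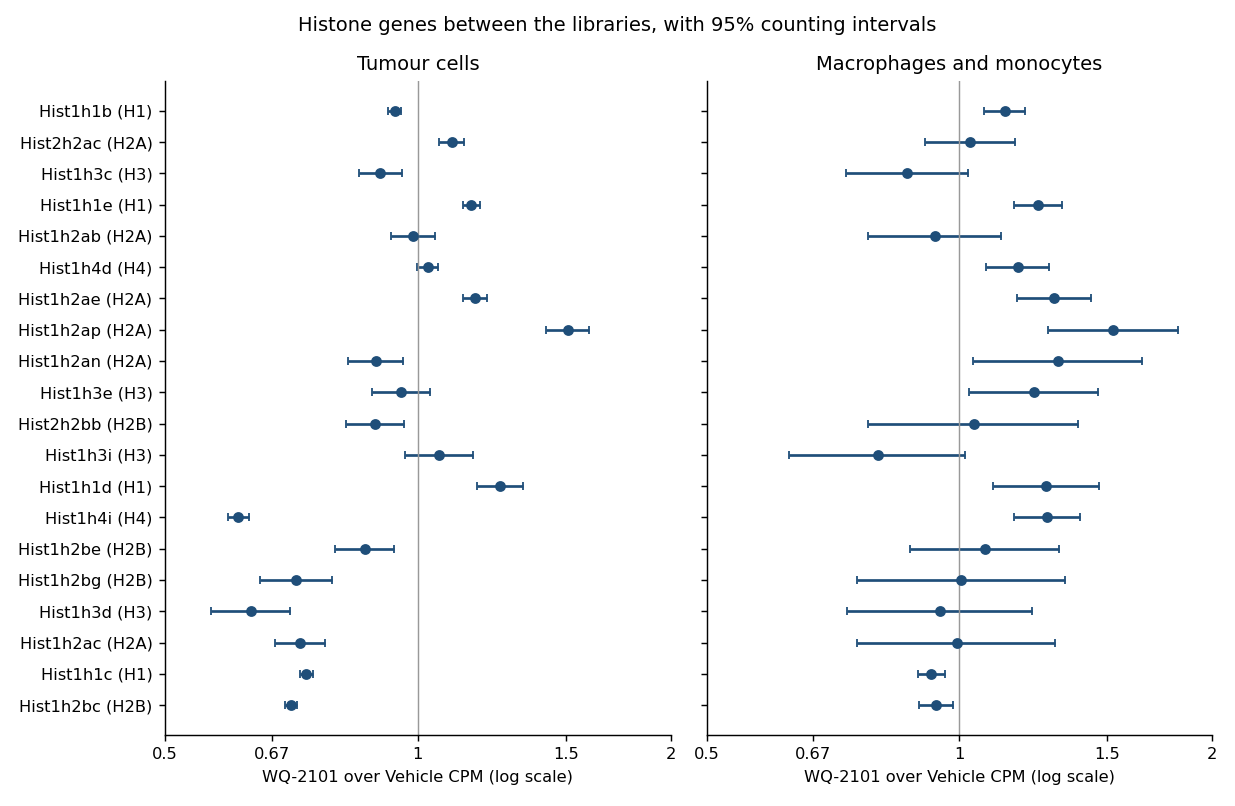
Ratio of WQ-2101 to Vehicle CPM (log axis) for the 20 members expressed in tumour cells, in tumour cells and in macrophages and monocytes, with 95% counting intervals. Hist1h4i sits at 0.611 in tumour cells and 1.27 in macrophages and monocytes, and Hist1h2ap near 1.51 and 1.52.

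None of the 23 expressed supply genes, 11 replication-independent histone genes, 12 early S genes or 10 mitosis genes differed by 1.5-fold between the libraries in tumour cells, where 0.86% of all genes were higher and 0.41% lower, so a count of 0 in lists of this size is near the background. Their medians were -0.068, -0.223, -0.157 and -0.066 on the log2 scale. Slbp stood at -0.327, with 144 CPM in Vehicle and 114 in WQ-2101 tumour cells. H1f0, a replication-independent H1 gene, stood at -0.301. It was higher in cycling than in non-cycling tumour cells, at 491 against 334 CPM with vehicle and 394 against 281 CPM with WQ-2101.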

How the data were processed

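Single-cell suspensions of whole tumours were profiled with 10x Chromium 3′ chemistry. The authors deposited raw UMI counts per gene and cell barcode on GRCm38. The file headers name Cell Ranger 7.2.0 and the submitters' processing notes version 2.2.2. Counting is not stated to resolve near-identical histone copies.

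Barcodes with at least 500 UMIs, 300 genes and at most 15% mitochondrial UMIs were kept, and doublets called by Scrublet (scanpy 1.11.5, expected rate 0.8% per 1000 barcodes; 3.835% and 4.173% called) were removed. Classes needed 3 marker UMIs and a class-specific marker level per 10000 UMIs (tumour 4, macrophage or monocyte 25, T cell 8). Cells passing the gate of another non-tumour class were left out, except that dendritic cells could hold macrophage markers below 50. Tumour cells also needed fewer than 10 macrophage marker UMIs and fewer than 1 Ptprc UMI per 10000. Other classes excluded cells at 3 or more Hmga2 and keratin UMIs per 10000, unless this rested on a single UMI. The levels were set after the distributions were seen. UMIs were summed per class, state and library and given as CPM with exact 95% Poisson intervals. Ratios have exact conditional intervals. Expressed means a mean of at least 5 CPM over the libraries in all cells of the class. The scripts were tested on simulated data.

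Named members were the 4 highest of each type, those past 1.5-fold between the libraries, and the 5 highest and 5 lowest cycling ratios. The members and lists were chosen with earlier results of these data known. With 1 library a group no test was made. Alternatives covered depth, doublets, gates, the cycling threshold, the denominator, the constant and the filter.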

Additional observations from a re-analysis of the deposited data

Results flagged for a closer look

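For 3 of the 20 expressed members a difference of 1.5-fold or more in tumour cells had the opposite sign in macrophages and monocytes, in both libraries where the states were compared. The share of all genes meeting this rule was not computed, so nothing is read from the count. Other members had opposite signs with smaller differences. All values are log2 ratios of CPM plus 5, and whether the classes differ was not tested, because each treatment is 1 library. Hist1h4i stood at -0.671 between WQ-2101 and vehicle in tumour cells and at 0.301 in macrophages and monocytes. In T cells it stood at -0.457, the sign of the tumour cells. Hist1h2bc, cycling against non-cycling, stood at -1.059 in tumour cells and 0.342 in macrophages and monocytes of the Vehicle library, and at -1.097 and 0.236 in the WQ-2101 library. Hist1h2ac stood at -0.833 and 0.166 in the Vehicle library and at -0.633 and 0.462 in the WQ-2101 library. Its macrophage values rest on few UMIs, 4.95 against 3.86 CPM and 5.89 against 2.90 CPM.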

How the results depend on the processing

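No paired analysis was possible because each treatment has 1 library. Of 87 alternative values of the 10 summed ratios, 86 stayed on the same side of 1. The exception was an alternative chosen after seeing the data, leaving out Hist1h2bc and Hist1h1c: non-cycling tumour cells, WQ-2101 over vehicle, then stood at 1.02, all tumour cells at 0.965, cycling ones at 0.949, macrophages and monocytes at 1.13. The cycling ratios (Vehicle, then WQ-2101) were then 4.53 and 4.23 in tumour cells, 5.48 and 4.73 in macrophages and monocytes, 6.74 and 5.57 in T cells, and the members lower in cycling tumour cells 1 and 1, by construction. Leaving out Hist1h2bc alone gave 2.04 and 2.37, 3.08 and 2.87, and 4.72 and 4.07 for the same classes. Between the libraries it gave 0.913, 0.923 and 0.792 in all, cycling and non-cycling tumour cells and 1.06 in macrophages and monocytes. With cells thinned to 3000 UMIs the cycling ratios were 1.57 and 1.67 in tumour cells, 3.34 and 2.82 in macrophages and monocytes and 4.46 in WQ-2101 T cells, and between the libraries 0.858, 0.862, 0.813 and 1.06. With each cell weighted alike they were 1.28 and 1.48, 2.41 and 2.14, and between the libraries 0.853 in all and 0.878 in cycling tumour cells and 1.07 in macrophages and monocytes. At 5 or more Mki67 and Top2a UMIs they were 1.48 and 1.74, 3.58 and 3.16, and 5.14 and 3.92. Without mitochondrial and ribosomal genes in the denominator they were 1.32 and 1.55 in tumour cells, and 0.885 and 0.906 between the libraries in all and cycling tumour cells. Raised gates gave 1.39 in Vehicle tumour cells. With no filter on low levels 25 and 24 of 66 members were higher in cycling tumour cells. The share of all genes was not computed at this setting. Thinned, 1 member was lower in cycling WQ-2101 tumour cells, Hist1h2bc. Hist1h1c there missed 1.5-fold thinned (-0.576) and with cells weighted alike (-0.580), Hist1h2ac thinned (-0.452), and Hist1h2be thinned (0.487). Hist1h4i stayed between -0.702 and -0.615 between the libraries in tumour cells. The cause of these shifts was not tested. Keeping doublets and a minimum of 1000 UMIs left the summed ratios within their counting intervals, and a constant of 1 moved the counts of members by at most 1. Depth limits the T cell values most, with 75 and 83 cycling cells.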

Other observations

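Outside the 3 classes described, histone UMIs were measured in smaller ones, each given as Vehicle and then WQ-2101. NK cells had 1070 CPM (955 to 1195, 39 cells) and 807 CPM (678 to 955, 35 cells). B cells had 1219 CPM (844 to 1703, 12 cells) and 1001 CPM (910 to 1097.5, 271 cells). T cells had 1018 and 970 CPM, which lie inside the intervals of the Vehicle NK cells and of the B cells of both libraries. Dendritic cells had 650.2 and 409 CPM, and endothelial cells 630 and 563 CPM. Neutrophils, cells that do not divide once mature, had 927 CPM (875 to 982, 252 cells) and 638 CPM (496 to 807, 65 cells). The neutrophil classes of the libraries are not alike: their neutrophil markers summed to 11470 and 49920 CPM, and 11 cells of the Vehicle class with 2 or more Mki67 and Top2a UMIs had a median of 18324 UMIs, against 1213 for the class. Fibroblasts had 560 CPM (528 to 593, 223 cells) and 739 CPM (679 to 802, 110 cells).

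In fibroblasts type H2B was lower in cycling than in non-cycling cells, as in tumour cells, at 130.3 against 194 CPM and 111 against 279 CPM, from 27 and 21 cycling cells. Type H2A ran the other way, at 188 against 33.6 CPM and 201 against 21.3 CPM. The other small classes had at most 11 cycling cells a library and are not compared by state here. The cells left in no class had 1148 and 992 CPM.

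Within tumour cells the makeup of the histone UMIs differed by state. Type H2B made up 45.47% of them in non-cycling and 19.43% in cycling Vehicle cells, and 43.46% and 16.36% in WQ-2101 cells. Type H2A went from 5.572% to 16.26% and from 7.644% to 19.41%. Type H1 went from 39.28% to 43.4% and from 38.84% to 45.05%.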
